A study of Mus musculus with 9 samples.

Results

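Mitosis and spindle assembly genes form the subject here: 40 genes, listed by symbol, whose products drive entry into mitosis, build the spindle, attach and monitor chromosomes, and divide the cell. All 40 symbols were found in the 9 deposited tables, which list 25175 symbols in all, and all 40 passed the filter on low values that left 11337 genes to test. Membership goes by symbol and function, with no threshold on a measured value. RNA was measured in HL-1 cells, a line of mouse atrial cardiomyocytes, in 3 groups of 3 libraries: 5 µM ivermectin, 10 µM importazole, and vehicle at 0.1% DMSO, each for 24 h. Ivermectin, an antiparasitic drug, blocks the importin α/β heterodimer, a carrier that takes many proteins through the nuclear pore. Importazole blocks importin-β, the subunit of that carrier which meets the pore. They were given at different doses and are not structural relatives. How much DMSO the treated cells received is not stated. Nor do the labels say that libraries came from separate cultures, so p-values measure only the spread between these libraries, which may be technical. HL-1 cells descend from a tumour of mice that carried the SV40 large T antigen under the atrial natriuretic factor promoter, and all 3 groups are this 1 line, in which cells keep dividing unlike those of the adult heart.

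In dividing cells, the transcripts of mitotic genes build up in G2 and are lost again in G1. A repressor complex called DREAM holds them down in resting cells, and the B-MYB and FOXM1 activators switch them on, through promoter elements that include the cell cycle homology region and the CCAAT box bound by NF-Y. Importins meet this set at the protein level: importin α/β binds spindle assembly factors such as TPX2 and NuMA and holds them inactive, and the GTPase Ran frees them close to chromosomes. The adult heart holds few dividing cardiomyocytes, so these genes are usually low there, whereas HL-1 cells are cultured as a proliferating line.

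The RefSeq promoter table (GRCm38.p6), which spans 250 bases before to 50 after each start, held 32 of the 40 members. Aurkb, Ccna2, Cdc25c, Foxm1, Incenp, Kif20a, Spc24 and Tpx2 had no entry. The core of the cell cycle homology region, searched as TTTGAA or TTCGAA on either strand, was present in 25 of these 32 windows (78.1%), against 21.7% of the 27025 genes with a window. CCAAT on either strand was present in 23 of 32 (71.9%), against 41.1% of all genes. Both were present in 21 members (65.6%), against 9.65% of all genes. A match is a description of letters and not a shown binding site. Stretches from 100 bases before to 20 after the start are printed for 5 members to show this shared layout and a member without it: Ccnb2 and Cdk1, which drive mitotic entry, Kif22, whose level differed below, and Kif11 and Numa1, which serve the spindle. Capitals mark the motifs, CCAAT appearing as ATTGG and TTTGAA as TTCAAA where they lie on the other strand.
Ccnb2: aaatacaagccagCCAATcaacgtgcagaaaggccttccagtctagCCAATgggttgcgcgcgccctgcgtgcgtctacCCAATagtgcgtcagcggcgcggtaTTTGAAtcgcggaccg
Cdk1: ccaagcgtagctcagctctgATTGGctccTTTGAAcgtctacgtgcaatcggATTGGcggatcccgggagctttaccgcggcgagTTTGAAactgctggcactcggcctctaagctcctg
Kif22: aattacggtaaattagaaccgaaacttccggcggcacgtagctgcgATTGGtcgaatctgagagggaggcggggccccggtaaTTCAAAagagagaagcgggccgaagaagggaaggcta
Kif11: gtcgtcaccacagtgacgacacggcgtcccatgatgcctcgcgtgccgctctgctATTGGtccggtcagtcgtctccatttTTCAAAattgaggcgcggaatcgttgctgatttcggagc
Numa1: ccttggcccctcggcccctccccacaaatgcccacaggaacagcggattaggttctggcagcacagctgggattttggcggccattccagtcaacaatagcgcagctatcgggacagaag
The stretches lie at chr9:70421535-70421654 (minus strand) for Ccnb2, chr10:69352893-69353012 (minus strand) for Cdk1 and chr7:127042401-127042520 (minus strand) for Kif22. Those of Kif11 and Numa1 lie at chr19:37376282-37376401 and chr7:101969743-101969862, both on the plus strand. Ccnb2 held 3 CCAAT matches and 1 homology core, Cdk1 held 2 of each, and Kif22 and Kif11 held 1 of each. Numa1 held neither motif anywhere in its window. That window lies inside the span that the GENCODE annotation gives for Numa1, which begins at chr7:101934111, and this earlier start was not searched. The Kif11 stretch ends before the GENCODE start of Kif11, chr19:37376403, so RefSeq and GENCODE place that start differently.

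Values were deposited as FPKM, fragments scaled by transcript length and by the mapped fragments of the library, so levels can be compared between genes. Summed FPKM was 392482 to 409655 in ivermectin libraries, 406804 to 410439 in importazole libraries and 365259 to 416748 in vehicle libraries. Absolute depth is unknown. The commonest ratio among low values between libraries, shared by only 96 to 130 genes a library, gave a rough depth of 0.752 to 1.24 relative to the first vehicle library. Yam1, an abundant transcript in the other 7 libraries, was listed at 0 in ivermectin 3 and vehicle 2, and results below are given without both where that ended a call. All 11 cardiomyocyte markers reached 1 FPKM in every library, and they summed to 6837 to 7399.7 FPKM with ivermectin, 7421 to 7962 with importazole and 7772 to 8887 with vehicle. Of these 11, 4 fell and 0 rose with ivermectin against vehicle, and 2 fell and 1 rose with importazole against vehicle. Over all genes tested, 4.31% and 2.26% changed in these comparisons, in either direction. The 9 fibroblast markers summed to 37.1 to 39.1, 34.8 to 37.2 and 23.8 to 27.0 FPKM in the same groups, nearly all of it from Ddr2, while Pdgfra and Thy1 stayed at or below 0.0882 FPKM. Of 2 fibroblast markers tested, 1 rose with each compound against vehicle, against the same 4.31% and 2.26% of all genes. The log2 differences of the 2 were 0.09 and 0.59 with ivermectin and 0.13 and 0.49 with importazole. The 8 endothelial markers summed to 9.22 to 11.9 FPKM over all libraries, mostly from Kdr, with Cdh5 at or below 0.0473, and 7 leukocyte markers to 1.48 to 2.96 FPKM. Smooth muscle markers, 5 genes carried by Acta2, summed to 1186 to 1306, 1200 to 1315 and 1375 to 1435 FPKM in ivermectin, importazole and vehicle libraries, with Myh11 at or below 0.119. Of these 5, 3 reached 1 FPKM in every treated library and 4 in every vehicle library. The 4 tested all had log2 differences from vehicle below 0 under both compounds (medians -0.21 with ivermectin and -0.12 with importazole), and 0 passed the test used below. Whether the shifts in these marker sums play a part in the results below was not tested. In bulk RNA, fewer cells of a type and less RNA per cell cannot be told apart.

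Mitotic transcripts were abundant in HL-1 cells in every group. With vehicle the median member stood at 35.6 FPKM, 28 of 40 members lay in the top 25% of genes tested and 36 in the top 50%. Tpx2, an activator of Aurora A, and Cdk1, the kinase that drives mitosis, were highest, at 105.0 ± 5.03 and 104.0 ± 1.81 FPKM (mean ± SD, n = 3). Top2a, which untangles chromosomes, followed at 95.6 ± 7.01 FPKM and Aurka, the Aurora A kinase of spindle poles, at 88.9 ± 5.42 FPKM, and each of these 4 overlapped its neighbour in the order. At the low end were Kif15, a spindle motor, at 2.70 ± 0.231 FPKM, below all others, and then Ttk (8.60 ± 0.887), Cenpe (9.24 ± 0.291) and Bub1 (9.50 ± 0.779), which overlapped one another. The vehicle means spanned 39.0-fold, and of the 39 pairs of neighbours in the order, 30 overlapped and 9 did not. Replicates lay close together: the median coefficient of variation of a member was 6.90% with ivermectin, 4.42% with importazole and 4.55% with vehicle, against 8.22%, 6.30% and 7.14% for the 7616 genes tested with a mean of 5 to 150 FPKM. This band was not matched to the members for level, here or where it is used below, and most members lie high among the genes tested.

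**Figure D1:**
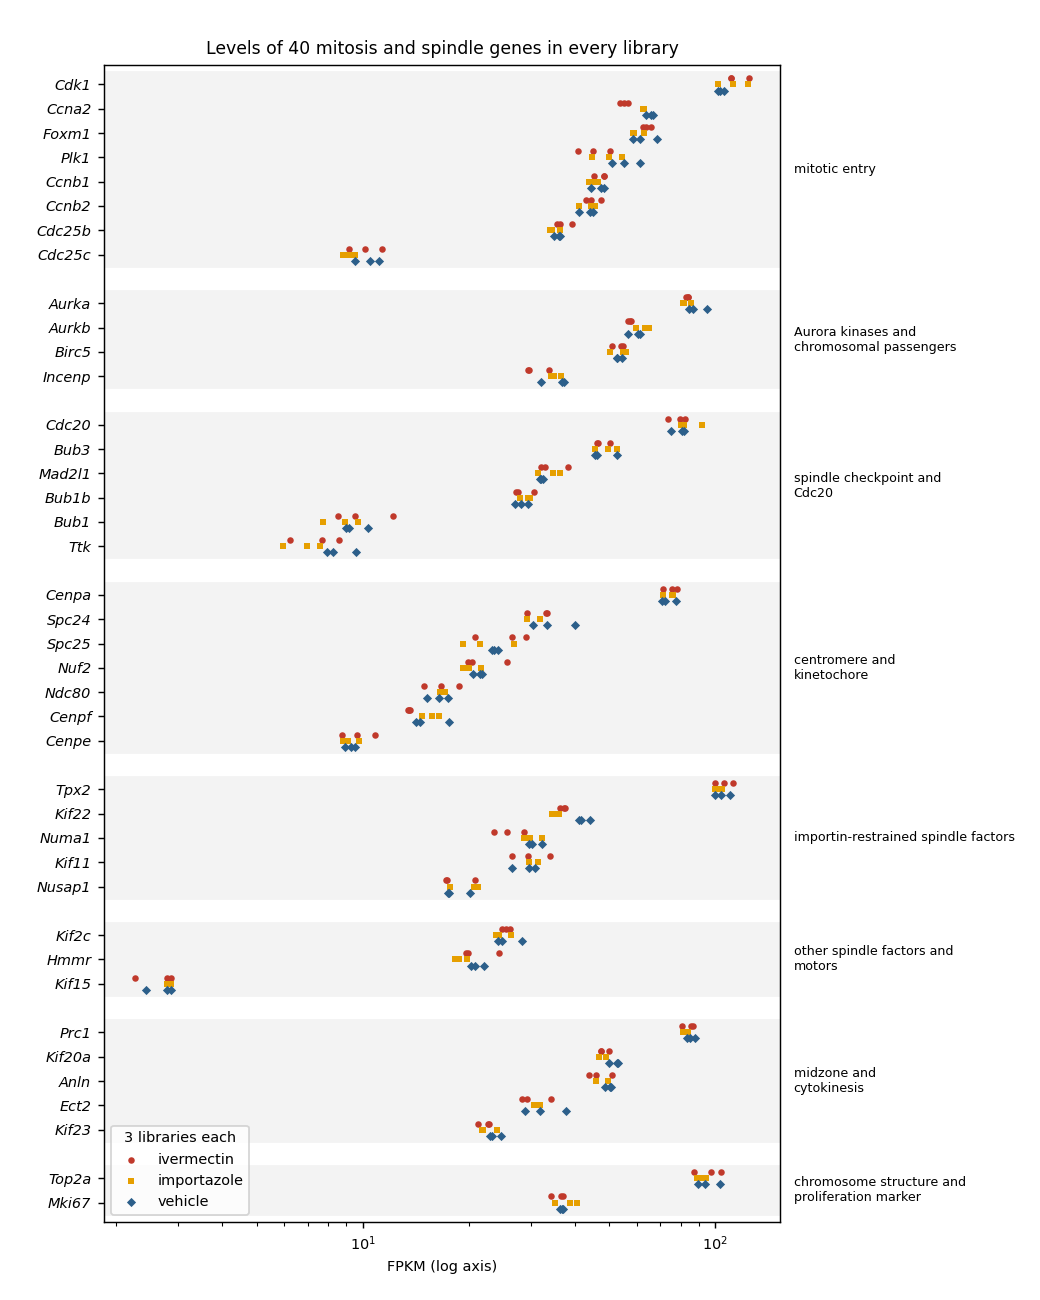
FPKM on a log axis of each of the 40 genes in each of the 9 libraries, by role, with ivermectin, importazole and vehicle points stacked in each row. Levels differ between genes by up to 39.0-fold, while the 3 groups of a gene mostly overlap, with Ccna2 and Kif22 among the exceptions.

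Ivermectin against vehicle was the comparison for the importin α/β inhibitor. Ccna2 fell and no member rose, so 1 of 40 members passed, against 4.31% of all 11337 genes (limma on log2(FPKM + 1), Benjamini-Hochberg adjusted p under 0.05; 203 genes higher and 286 lower). Unadjusted p was under 0.05 for 5 members, all lower, against 20.7% of all genes. The median log2 difference was -0.01 over the members and 0.01 over all genes tested, with 18 members above 0 and 22 below. Differences stayed within 0.25 log2 units for 39 of 40 members, against 83.1% of all genes and 85.0% of genes at 5 to 150 FPKM. The 95% confidence interval lay within ±0.5 for 39 members, against 79.7% and 85.2%, so most members are bounded to small differences at this replication.

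Importazole against vehicle, the comparison for the importin-β inhibitor, also called 1 of 40 members. Kif22 fell and none rose, against 2.26% of all genes called (192 of 256 genes higher, but 159 of 276 under quantile normalization and 162 of 280 under median-of-ratios scaling). Unadjusted p was under 0.05 for 2 members, both lower, against 15.8% of all genes. The median log2 difference of the members was -0.04, with 16 above 0 and 24 below, and that of all genes was 0.04. Under quantile normalization these medians were -0.08 and -0.005, and under median-of-ratios scaling -0.09 and -0.001. Without vehicle 1 they were 0.004 and 0.07. Of the 40 members, 38 differed by less than 0.25, against 86.6% of all genes and 88.3% of genes at 5 to 150 FPKM, and for 39 the 95% interval lay within ±0.5, against 83.1% and 88.3%. Both comparisons with vehicle use the same 3 vehicle libraries, so their values are not independent.

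**Figure D2:**
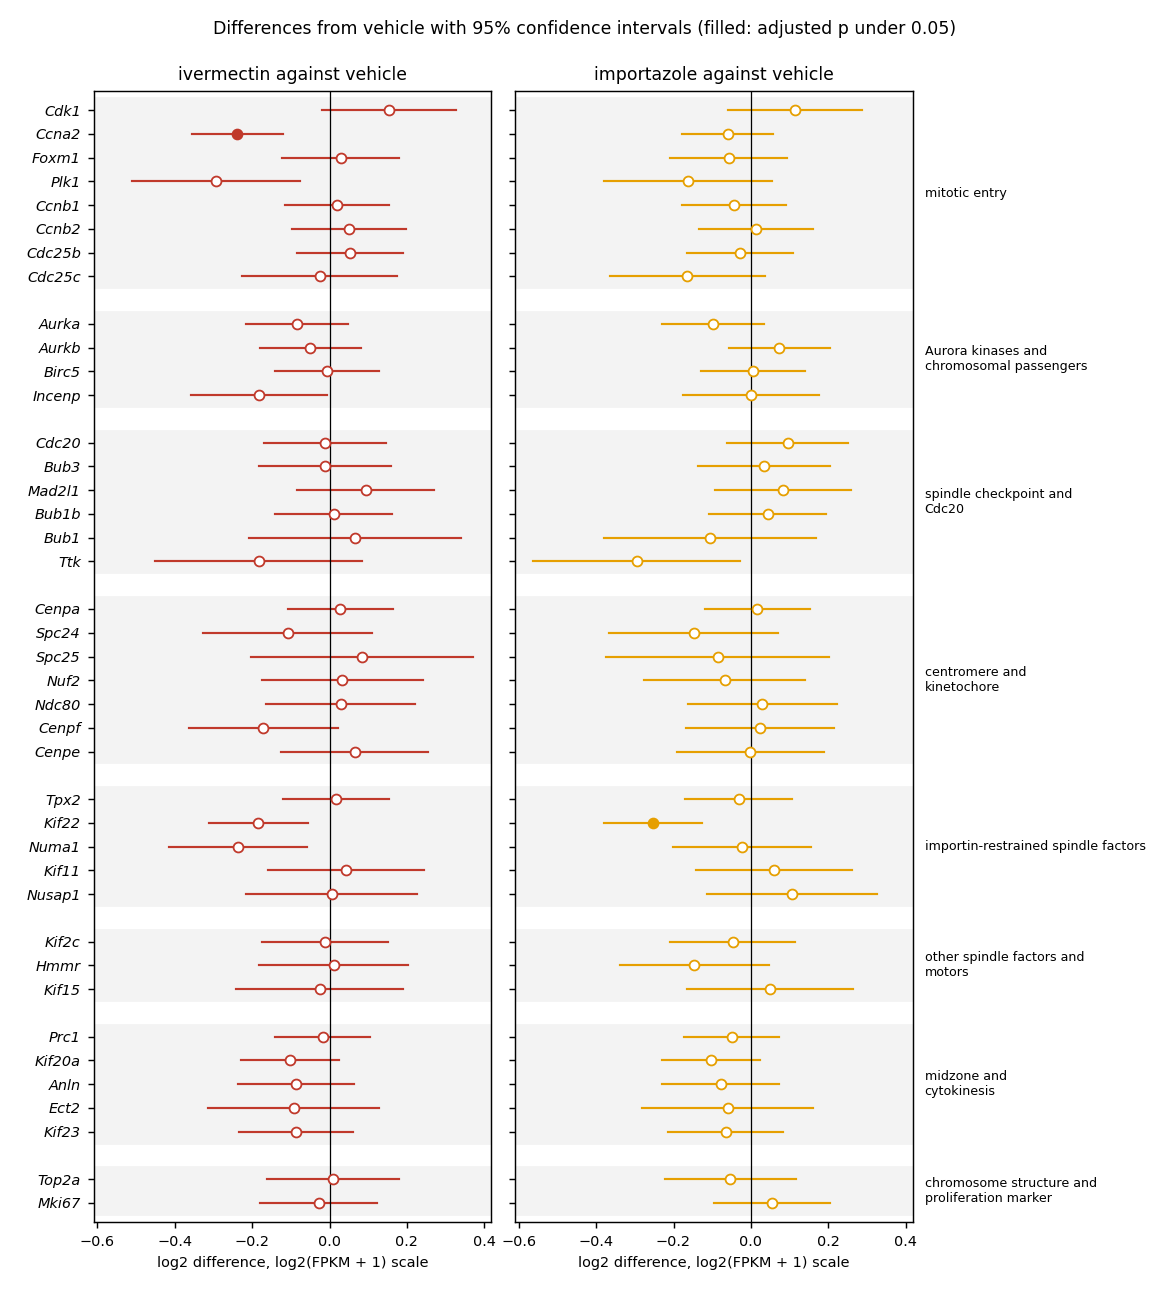
Log2 difference from vehicle (points) with its 95% confidence interval (lines) for each of the 40 genes, ivermectin on the left and importazole on the right, filled where adjusted p was under 0.05. Ccna2 on the left (-0.24) and Kif22 on the right (-0.25) are the filled points, and most others sit close to 0.

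Direct comparison of ivermectin with importazole called 0 of 40 members, against 3.42% of all genes (81 of 388 higher, but 191 of 465 under quantile normalization and 139 of 421 under median-of-ratios scaling). In the same limma fit 4 members, Ccna2, Numa1, Incenp and Cenpf, had an unadjusted p under 0.05, all lower with ivermectin, against 19.0% of all genes. With the GC and length trend taken out of each library, 1 member passed, Ccna2. The members' median log2 difference was 0.01, against -0.03 for all genes, and every member differed by less than 0.25, with its 95% interval within ±0.5. Under quantile normalization these medians were 0.07 and 0.007, and without ivermectin 3 they were -0.02 and -0.04.

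Mitotic entry genes number 8 among the members: cyclins A2, B1 and B2, their kinase Cdk1, the phosphatases Cdc25b and Cdc25c that activate it, the kinase Plk1 and the transcription factor Foxm1. With ivermectin against vehicle 1 fell, 0 rose and 7 did not pass (4.31% of all genes called), and with importazole 0 of 8 passed (2.26%). Ccna2, which encodes cyclin A2 and acts in S phase and early mitosis (chromosome 3, 36564865 to 36572150, minus strand, GRCm38), had 53.9, 55.4 and 56.7 FPKM with ivermectin, 62.8, 62.4 and 63.1 FPKM with importazole, and 63.7, 66.9 and 65.7 FPKM with vehicle. All 3 ivermectin values lay below all 6 others, and the importazole values lay just below those of vehicle. The mean was 55.3 ± 1.39 FPKM with ivermectin and 65.5 ± 1.64 FPKM with vehicle (SD, n = 3 each), a log2 difference of -0.24 (95% interval -0.36 to -0.12, limma adjusted p = 0.0311). With importazole against vehicle the log2 difference was -0.06 (adjusted p = 0.644), and ivermectin against importazole gave -0.18 (adjusted p = 0.0985, or 0.0363 with the GC and length trend removed), so a difference between the compounds was not called in the limma fit. The ivermectin call rests on little margin: it held without ivermectin 3 (adjusted p = 0.0440), but leaving out any other library ended it, with adjusted p of 0.0519 to 0.117 and a log2 difference of -0.26 to -0.22. It was also lost without both libraries that list Yam1 at 0 (0.130), with no filter (0.0779), with only the 6 libraries compared (0.0924) and without trended and robust moderation (0.0657), and exons of Exosc9 overlap the gene on the other strand while use of strand is not given.

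Cdk1 was the member with the highest difference under ivermectin. It had 111, 111 and 125 FPKM with ivermectin, 124, 102 and 113 FPKM with importazole, and 102, 104 and 106 FPKM with vehicle. The ivermectin values all lay above those of vehicle, with the importazole values spread across both, and the log2 differences from vehicle were 0.15 with ivermectin (limma adjusted p = 0.301) and 0.11 with importazole (0.525). Plk1, a kinase of centrosome maturation and spindle assembly, had 45.0, 50.5 and 40.9 FPKM with ivermectin, 50.2, 54.5 and 44.9 FPKM with importazole, and 61.3, 55.4 and 51.0 FPKM with vehicle. Ivermectin values were all below those of vehicle, importazole values overlapped both, and neither the ivermectin difference of -0.29 (limma adjusted p = 0.125) nor the importazole difference of -0.16 (0.463) passed.

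Cyclin B1 is the partner of CDK1 in mitosis. Ccnb1 had 45.5, 48.6 and 48.5 FPKM with ivermectin, 46.7, 45.4 and 44.1 FPKM with importazole, and 44.5, 48.5 and 47.6 FPKM with vehicle, and its groups overlapped, with a log2 difference from vehicle of 0.02 (95% interval -0.11 to 0.15) under ivermectin and -0.04 (-0.18 to 0.09) under importazole. Foxm1, the activator of the G2 and mitotic programme, had 63.7, 62.6 and 65.7 FPKM with ivermectin, 58.6, 62.9 and 59.2 FPKM with importazole, and 68.7, 58.5 and 61.4 FPKM with vehicle. Its groups overlapped too, with differences of 0.03 (-0.12 to 0.18) and -0.06 (-0.21 to 0.09) for ivermectin and importazole against vehicle. Cdc25c had 9.15, 10.1 and 11.4 FPKM with ivermectin, 9.18, 8.79 and 9.52 FPKM with importazole, and 10.5, 9.53 and 11.1 FPKM with vehicle, so the importazole values lay just under all of vehicle and the ivermectin values spread across them (-0.16, limma adjusted p = 0.419 for importazole). The other 2 entry genes, Ccnb2 and Cdc25b, stayed within -0.03 to 0.05 of vehicle on the log2 scale.

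Spindle factors that importins restrain, shown apart, are 5 members: Tpx2, Numa1, Kif11, Nusap1 and Kif22. In importazole against vehicle 1 of these 5 fell and 4 did not pass (2.26% of all genes called). In ivermectin against vehicle 0 of 5 passed (4.31% of all genes called). Kif22, a chromosome-binding kinesin that pushes chromosome arms away from the poles (chromosome 7, 127027729 to 127042471, minus strand), had 36.4, 37.4 and 37.7 FPKM with ivermectin, 34.5, 36.1 and 35.4 FPKM with importazole, and 44.2, 41.2 and 41.6 FPKM with vehicle. All 6 values from treated cells lay below the 3 of vehicle, and importazole values lay below those of ivermectin. It averaged 35.4 ± 0.793 FPKM with importazole and 42.4 ± 1.61 FPKM with vehicle (SD, n = 3 each), a log2 difference of -0.25 (95% interval -0.38 to -0.13, limma adjusted p = 0.0485). For ivermectin against vehicle it was -0.18 (-0.31 to -0.06, adjusted p = 0.106), and the compounds differed by 0.07 (-0.06 to 0.20, adjusted p = 0.567), so the fall is not shown to be particular to importazole. The call held without ivermectin 3 (adjusted p = 0.0431) and was lost when any of the other 8 libraries was left out (0.0629 to 0.177; log2 difference -0.27 to -0.22), without both libraries that list Yam1 at 0 (0.0975), with no filter (0.135), with only the 6 libraries compared (0.0671) and without trended and robust moderation (0.0841). Reads of Kif22 could be shared with the pseudogene Kif22-ps, and Gm31749 overlaps it on the other strand.

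Numa1 encodes NuMA, which gathers microtubules at spindle poles. It had 25.7, 28.7 and 23.6 FPKM with ivermectin, 28.7, 32.3 and 29.8 FPKM with importazole, and 32.2, 29.8 and 30.3 FPKM with vehicle. Ivermectin values were all below those of vehicle, with ivermectin 3 the lowest of the 9 and ivermectin 2 level with the lowest importazole library. The ivermectin difference from vehicle was -0.24 (limma adjusted p = 0.131), or -0.12 (0.276) with the GC and length trend removed, and the importazole difference was -0.02 (0.927).

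Tpx2, Kif11 and Nusap1 had overlapping groups and no call in any comparison. Tpx2 had 100.1, 112 and 106 FPKM with ivermectin, 105, 100.2 and 103 FPKM with importazole, and 110.4, 104 and 100.5 FPKM with vehicle, with overlapping groups and differences from vehicle of 0.02 (95% interval -0.12 to 0.15) for ivermectin and -0.03 (-0.17 to 0.11) for importazole. Kif11, the bipolar kinesin Eg5 that pushes spindle poles apart, had 29.6, 26.5 and 34.0 FPKM with ivermectin, 29.7, 29.7 and 31.5 FPKM with importazole, and 30.9, 26.6 and 29.7 FPKM with vehicle; the highest and the lowest of the 9 values were both from ivermectin libraries, and the differences were 0.04 (-0.16 to 0.24) and 0.06 (-0.14 to 0.26). Nusap1, which bundles spindle microtubules, had 17.4, 17.3 and 20.9 FPKM with ivermectin, 21.3, 20.7 and 17.7 FPKM with importazole, and 20.2, 17.6 and 17.4 FPKM with vehicle. Each group of Nusap1 held both low and high values, and its differences from vehicle were 0.01 (-0.21 to 0.22) with ivermectin and 0.11 (-0.11 to 0.33) with importazole.

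**Figure D3:**
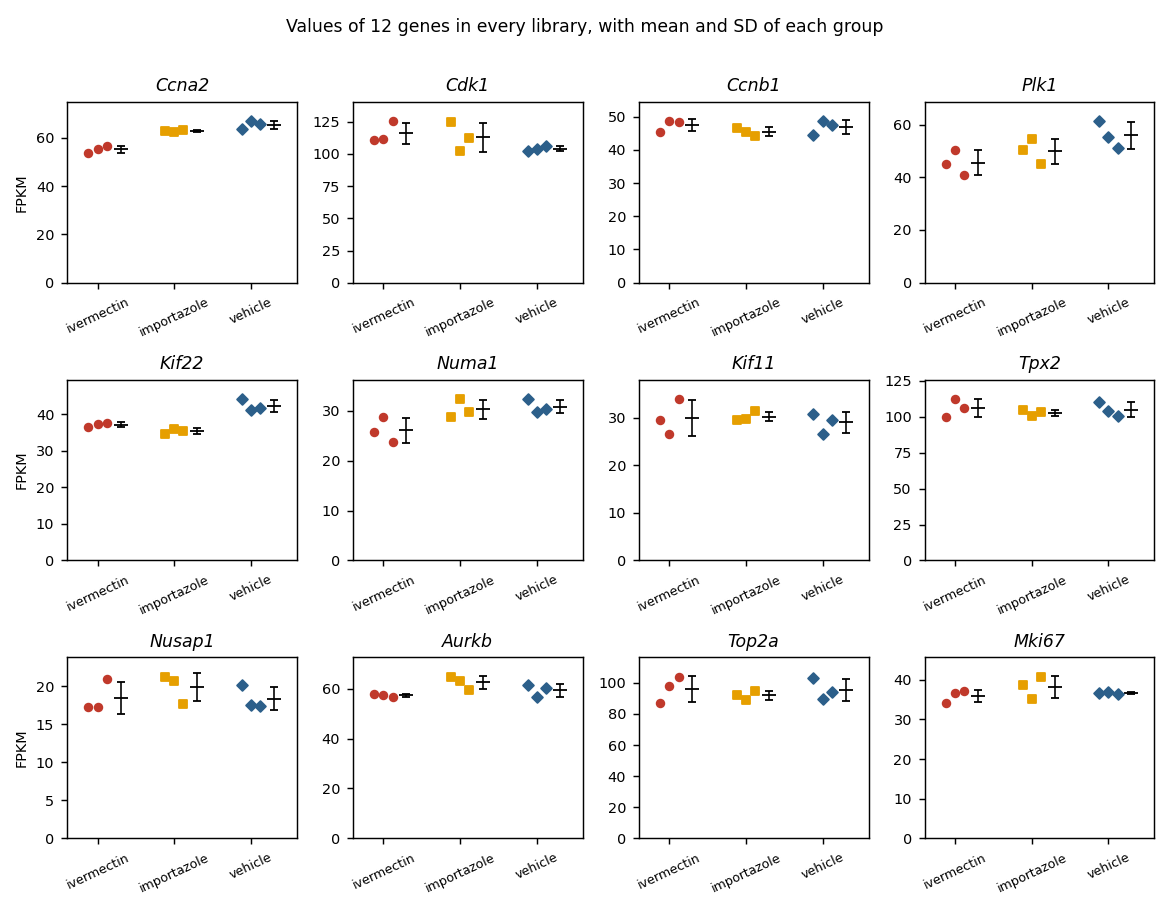
FPKM of 12 genes in every library, from 0, with ivermectin, importazole and vehicle in order and the mean and SD (n = 3) beside each group. Ccna2 is low in the 3 ivermectin libraries and Kif22 in all 6 treated libraries, whereas Tpx2, Kif11, Ccnb1 and Mki67 overlap between groups.

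Aurora kinases and chromosomal passengers gave 0 calls among 4 members in each of the 3 comparisons. Of all genes tested, 4.31%, 2.26% and 3.42% were called in the ivermectin, importazole and direct comparisons. Aurkb, the passenger kinase that corrects chromosome attachments, had 58.0, 57.4 and 56.8 FPKM with ivermectin, 64.9, 63.3 and 59.8 FPKM with importazole, and 61.5, 56.6 and 60.4 FPKM with vehicle. Its ivermectin values lay below those of importazole and both overlapped vehicle, with a difference between the compounds of -0.12 (limma adjusted p = 0.292). Incenp, the scaffold of that complex, had 29.5, 34.0 and 29.8 FPKM with ivermectin, 35.0, 36.7 and 34.2 FPKM with importazole, and 37.3, 32.1 and 36.8 FPKM with vehicle, so the ivermectin values lay below those of importazole and overlapped those of vehicle, with -0.18 against vehicle (limma adjusted p = 0.228) and -0.18 against importazole (0.249). Birc5, or survivin, stayed within 0.01 of vehicle under both compounds, and Aurka differed by -0.08 with ivermectin and -0.10 with importazole, neither past the test.

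Spindle checkpoint genes hold cells in metaphase until chromosomes are attached, by restraining Cdc20. None of the 6 members passed in the ivermectin, importazole or direct comparison, against 4.31%, 2.26% and 3.42% of all genes. Ttk, the kinase that starts the checkpoint signal, had 6.23, 8.56 and 7.67 FPKM with ivermectin, 6.97, 5.94 and 7.58 FPKM with importazole, and 9.61, 7.94 and 8.25 FPKM with vehicle. Importazole values lay below all of vehicle and ivermectin values overlapped both; the importazole difference was -0.30 (limma adjusted p = 0.271) and its interval, -0.56 to -0.03, was the widest reach below 0 of any member in that comparison. Bub1, Bub1b, Bub3, Mad2l1 and Cdc20 overlapped between groups in each comparison, with differences from vehicle of -0.11 to 0.09.

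Centromere and kinetochore members, 7 genes that build the attachment site, gave 0 calls in any comparison. The shares of all genes called were 4.31%, 2.26% and 3.42% in the ivermectin, importazole and direct comparisons. Cenpf, a kinetochore protein of G2 and mitosis, had 13.7, 13.4 and 13.5 FPKM with ivermectin, 15.7, 14.7 and 16.5 FPKM with importazole, and 17.6, 14.6 and 14.1 FPKM with vehicle, and its 3 ivermectin values, which lay within a narrow band, were below all 6 others. The differences were -0.17 against vehicle (limma adjusted p = 0.296) and -0.19 against importazole (0.258). Without vehicle 1, the highest of the 9, the difference from vehicle was -0.08. Cenpa, the centromeric histone, differed from vehicle by 0.03 with ivermectin and 0.02 with importazole. The 4 subunits of the NDC80 complex, which grips microtubules, had differences under ivermectin of 0.03 for Ndc80, 0.03 for Nuf2, 0.08 for Spc25 and -0.11 for Spc24. None passed, and each of the 4 changed sign when some 1 library was left out. Cenpe, a kinetochore motor, was at 0.06 with ivermectin and 0.00 with importazole.

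Midzone and cytokinesis genes, which organise the overlap of microtubules and the cleavage furrow, were 5 members. They gave 0 calls in the ivermectin, importazole and direct comparisons, against 4.31%, 2.26% and 3.42% of all genes. All 5 differences from vehicle were below 0 under each compound, at -0.10 to -0.02 with ivermectin and -0.10 to -0.05 with importazole. Below 0 in these comparisons were 22 and 24 of all 40 members, and 5291 and 4371 of all 11337 genes. Because the vehicle libraries are shared, the shared direction is not 2 separate observations. Leaving out vehicle 3 turned Ect2 above 0 in both comparisons (0.01 and 0.04), and leaving out ivermectin 1 or vehicle 2 did so for Prc1 with ivermectin. Kif20a, a motor of the midzone, had 49.99, 47.6 and 47.6 FPKM with ivermectin, 49.0, 49.1 and 47.0 FPKM with importazole, and 52.9, 49.97 and 53.3 FPKM with vehicle. Importazole values lay under all of vehicle by a small margin, 1 ivermectin value lay just above the lowest of vehicle, and the differences were -0.10 with ivermectin and -0.10 with importazole (limma adjusted p = 0.339 and 0.419). Kif23, Anln and Ect2, which act with the central spindle and the furrow, and Prc1, which bundles midzone microtubules, did not pass.

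The remaining members gave 0 calls in the ivermectin, importazole and direct comparisons (4.31%, 2.26% and 3.42% of all genes called). Top2a had 87.3, 97.8 and 104 FPKM with ivermectin, 92.5, 88.9 and 94.7 FPKM with importazole, and 103, 89.7 and 93.9 FPKM with vehicle, and Mki67, the proliferation marker Ki-67, had 34.2, 36.6 and 37.2 FPKM with ivermectin, 38.7, 35.2 and 40.8 FPKM with importazole, and 36.7, 37.0 and 36.4 FPKM with vehicle. Both overlapped across the 3 groups, with differences from vehicle of 0.01 (95% interval -0.16 to 0.18) and -0.03 (-0.18 to 0.12) for ivermectin, and -0.05 (-0.22 to 0.12) and 0.05 (-0.10 to 0.20) for importazole. Hmmr, which anchors spindle poles, was at 0.01 with ivermectin and -0.15 with importazole, where its 3 values lay below those of vehicle, and the motors Kif15 and Kif2c stayed within -0.05 to 0.05 of vehicle.

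Groups that did not overlap were counted over all members. Ivermectin values all lay below vehicle for 7 members (12.2% of all genes tested), Ccna2, Plk1, Aurka, Cenpf, Numa1, Kif22 and Kif23, and all above for 1, Cdk1 (12.4%). Importazole values were all below vehicle for 6, Ccna2, Cdc25c, Ttk, Kif22, Hmmr and Kif20a (7.07%), and all above for 0 (16.5%). Between the compounds, ivermectin was all below importazole for 4, Ccna2, Aurkb, Incenp and Cenpf (16.1%), and all above for 1, Kif22 (8.04%).

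Individual libraries differed in how they placed the members. Ivermectin 3 held the highest of the 9 values for 15 members, vehicle 1 for 12, and no other library for more than 3. Within the ivermectin group, the deviation of ivermectin 3 from the group mean ran against the GC content of the longest transcript across the 40 members (Pearson r = -0.80, Spearman rho = -0.79, as a description, since the points share a library), with r of 0.49 and 0.48 for the other two ivermectin libraries. In the same measure r was 0.02, 0.46 and -0.45 for importazole 1, 2 and 3 and 0.34, -0.04 and -0.35 for vehicle 1, 2 and 3. Members with low GC content, such as Mad2l1 (40.1%), Bub1 (41.0%), Nuf2 (41.7%) and Hmmr (41.8%), were highest in ivermectin 3, though Ect2 (40.2%) was not, while Plk1 (56.0%), Numa1 (55.9%) and Cdc20 (55.6%) were lowest there. The group difference of ivermectin against vehicle had r = -0.36 with GC content over the members, and importazole against vehicle had r = 0.01. With the trend removed, Ccna2 had -0.27 (limma adjusted p = 0.00806) for ivermectin and Kif22 -0.25 (0.0309) for importazole against vehicle.

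**Figure D4:**
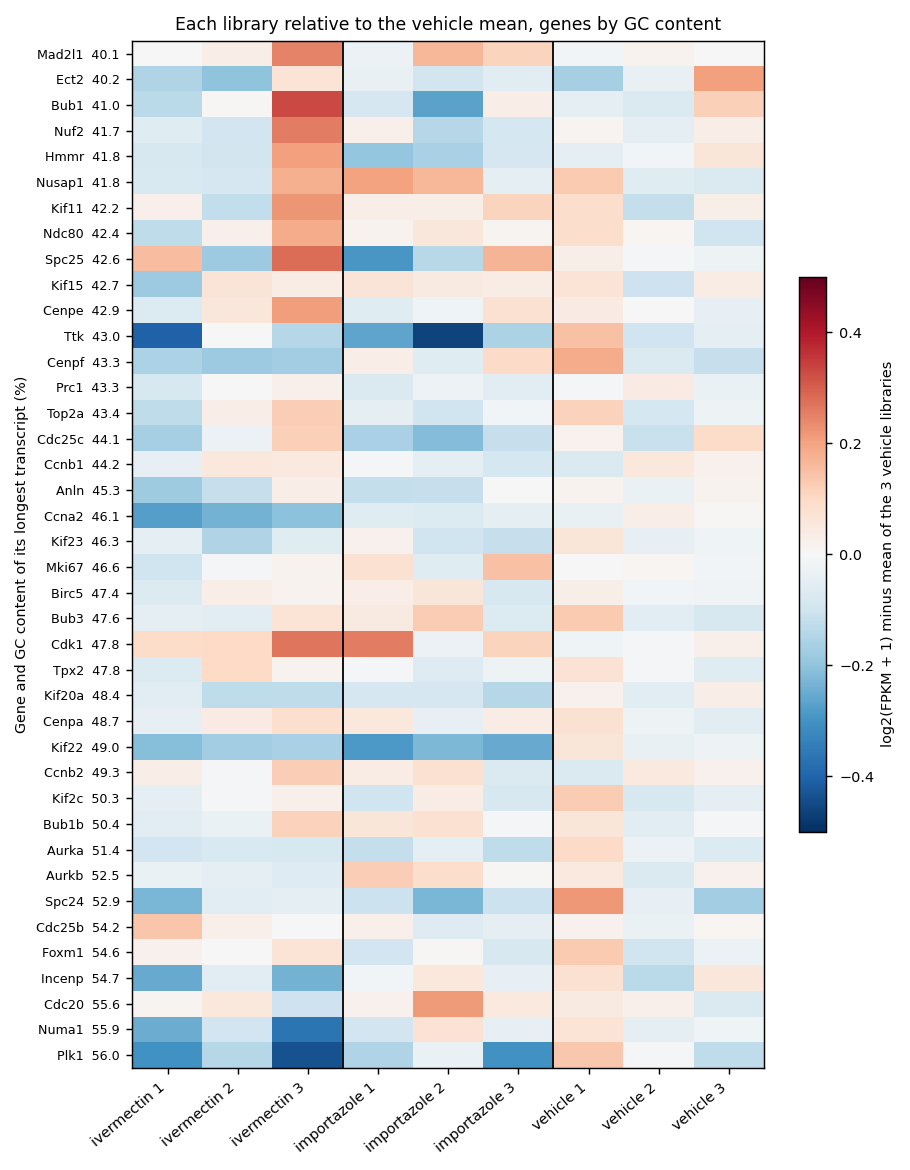
Log2(FPKM + 1) of each of the 40 genes in each library minus its mean over the 3 vehicle libraries, with genes from low GC content at the top to high at the bottom. Ivermectin 3 is red for most genes at the top and blue for Plk1 and Numa1 at the bottom, and the rows of Ccna2 (ivermectin) and Kif22 (both compounds) are blue in every treated library of those groups.

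Other genes of the same pathways, 137 tested in 6 lists (anaphase-promoting complex, cohesin, condensin, other kinetochore and checkpoint genes, other mitotic kinases and phosphatase control, other spindle and cytokinesis genes), were read from the same fit. With ivermectin against vehicle 1 rose and 0 fell (4.31% of all genes called), with importazole 0 rose and 1 fell (2.26%), and the direct comparison gave 0 calls (3.42%). Unadjusted limma p was under 0.05 for 21, 9 and 16 of the 137 in these comparisons, against 20.7%, 15.8% and 19.0% of all genes. Their medians were 0.00, 0.02 and -0.01 in these comparisons. The gene that rose was Cdc16, a subunit of the anaphase-promoting complex that marks cyclins for destruction. It had 14.2, 12.96 and 15.6 FPKM with ivermectin, 10.7, 11.9 and 12.05 FPKM with importazole, and 11.3, 10.8 and 9.85 FPKM with vehicle, all ivermectin values being above the rest, with a log2 difference of 0.39 (limma adjusted p = 0.0326); the call held without ivermectin 2 or importazole 1 and was lost without any of the other 7 libraries (adjusted p of 0.0502 to 0.103), without both that list Yam1 at 0 (0.175), with only the 6 libraries compared (0.0762) and with no filter (0.191). The gene that fell was Clasp1, which stabilises microtubules at kinetochores. Clasp1 had 41.8, 44.3 and 44.1 FPKM with ivermectin, 36.6, 38.0 and 39.3 FPKM with importazole, and 46.3, 46.2 and 47.3 FPKM with vehicle, the importazole values being the lowest 3, with a difference of -0.29 (limma adjusted p = 0.0269). That call held without any 1 ivermectin library and was lost without any 1 vehicle or importazole library (0.0560 to 0.125), without both that list Yam1 at 0 (0.0784), with no filter (0.0967) and without trended and robust moderation (0.0574). Ivermectin against importazole gave 0.19 for Clasp1 (limma adjusted p = 0.109, 0.0385 with quantile normalization and 0.0391 with the GC and length trend removed).

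Regulators of the mitotic programme were listed separately. Of 23 tested genes of the DREAM and MYB-MuvB complexes and the E2F and RB families, 1 fell with ivermectin and 0 rose, a share close to the 4.31% of all genes. With ivermectin 6 of the 23 had an unadjusted limma p under 0.05, 3 higher and 3 lower, against 20.7% of all genes. Importazole and the direct comparison gave 0 calls, against 2.26% and 3.42% of all genes, with 2 and 6 genes at an unadjusted limma p under 0.05, against 15.8% and 19.0%. E2f1, an activator of S-phase genes, had 50.1, 49.7 and 43.4 FPKM with ivermectin, 53.5, 56.2 and 50.8 FPKM with importazole, and 62.4, 63.8 and 58.3 FPKM with vehicle. The order was ivermectin below importazole below vehicle with no overlap, with differences from vehicle of -0.36 for ivermectin (limma adjusted p = 0.0198) and -0.20 for importazole (0.214), and -0.16 between the compounds (0.259). Its ivermectin call was lost without vehicle 1 (0.0672), vehicle 2 (0.0836), ivermectin 3 (0.0517) or both libraries that list Yam1 at 0 (0.145), with only the 6 libraries compared (0.0550) and with no filter (0.146). Mybl2, which encodes B-MYB, had 42.7, 47.4 and 55.9 FPKM with ivermectin, 55.8, 55.3 and 52.8 FPKM with importazole, and 58.0, 60.6 and 49.3 FPKM with vehicle, with overlap between groups and differences of -0.20 and -0.03 for ivermectin and importazole against vehicle that did not pass (limma adjusted p = 0.292 and 0.922).

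CDK inhibitors brake the cycle, and none was called higher. Of the 6 tested, 1 fell with ivermectin, while importazole and the direct comparison called 0, against 4.31%, 2.26% and 3.42% of all genes. In the same order 2, 2 and 1 had an unadjusted limma p under 0.05, against 20.7%, 15.8% and 19.0% of all genes. Cdkn2d (p19-INK4d) had 77.0, 73.0 and 76.0 FPKM with ivermectin, 87.2, 85.1 and 74.4 FPKM with importazole, and 97.2, 96.2 and 91.9 FPKM with vehicle. Ivermectin and importazole values lay below all of vehicle, with -0.33 (limma adjusted p = 0.0210) and -0.21 (0.158), and the ivermectin call was lost without vehicle 1 (0.0718), vehicle 2 (0.0805), ivermectin 2 (0.0721) or both libraries that list Yam1 at 0 (0.129), and with no filter (0.146).

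Cdkn1a (p21), the inhibitor that p53 induces, had 81.8, 81.3 and 87.1 FPKM with ivermectin, 96.0, 86.6 and 87.8 FPKM with importazole, and 90.8, 86.6 and 86.7 FPKM with vehicle. Its groups overlapped, and the differences from vehicle were -0.08 (95% interval -0.21 to 0.06) with ivermectin and 0.03 (-0.10 to 0.17) with importazole. Cdkn1b, Cdkn2a and Cdkn2c differed from vehicle by -0.13, -0.16 and -0.22 with ivermectin and by 0.02, -0.01 and -0.17 with importazole, and Cdkn2b by -0.13 and 0.28, none past the test. Cdkn1c was at or under 1.31 FPKM in every library and was not tested. Of 7 tested G1 cyclins and their kinases, 0 passed in the ivermectin, importazole or direct comparison, against 4.31%, 2.26% and 3.42% of all genes. In the ivermectin, importazole and direct comparisons 1, 1 and 2 had an unadjusted limma p under 0.05, against 20.7%, 15.8% and 19.0% of all genes.

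Importins and the Ran cycle, the proteins that restrain and release spindle factors, gave 0 calls among 10 genes in each comparison. Over all genes 4.31%, 2.26% and 3.42% were called in the ivermectin, importazole and direct comparisons. Of the 10, 2, 3 and 1 had an unadjusted limma p under 0.05, against 20.7%, 15.8% and 19.0% of all genes. Kpnb1, which encodes importin-β, had 72.9, 80.8 and 77.9 FPKM with ivermectin, 85.1, 90.1 and 82.2 FPKM with importazole, and 81.6, 75.2 and 71.2 FPKM with vehicle. The importazole values all lay above vehicle (0.17, limma adjusted p = 0.258), and the ivermectin values overlapped it (0.02, 0.879). Kpna2, an importin α, averaged 69.6 ± 4.68 FPKM with ivermectin, 71.5 ± 1.44 with importazole and 64.5 ± 2.81 with vehicle, and Ran 364 ± 101, 462 ± 31.8 and 409 ± 81.0 FPKM (SD, n = 3 each), with no call.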

How the data were processed

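Poly(A) RNA of HL-1 cells was sequenced on the Ion Proton system, per the labels' protocols. The deposited files give a gene symbol and an FPKM value, per the file headers. Tools named in the submitters' processing notes are Bowtie, Bowtie2, Cufflinks and STAR, with the builds GRCm38 and mm10; their versions, the annotation and any use of strand are not given. FPKM is relative to all mapped fragments, so 1 abundant transcript missing from a library can raise the others. Median log2(FPKM + 1) over genes tested was 3.42 in vehicle 2, against 3.52 in vehicle 1 and 3.44 in vehicle 3. It was 3.50 in ivermectin 3, against 3.45 in ivermectin 1 and 3.49 in ivermectin 2. Whether the Yam1 value of 0 shifted vehicle 2 or ivermectin 3 was not tested. Reads could not be recovered, because only 13.5% to 15.9% of values under 0.05 FPKM stood to the first vehicle library in ratios of 1 to 4 whole reads (tolerance 0.01 log2 units), so no count test was run.

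The 48 symbols with several rows were summed per symbol. A gene was tested if 3 or more libraries reached 1 FPKM, and log2(FPKM + 1), which understates changes of low genes, was fitted with limma 3.58.1 in R 4.3.3 (group as the only term, all 9 libraries, trend and robust moderation). Genes were called at a Benjamini-Hochberg adjusted p under 0.05 over all 11337 genes, two-sided. GENCODE M21 (GRCm38) supplied positions and GC content, and RefSeq the promoters. The test was tried on simulated data in which the spread was independent between genes. All planted differences were larger in size than those of Ccna2 and Kif22, so differences as small as theirs were not checked. Figures used Python 3.11.15 and matplotlib 3.10.9.

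The members and lists were chosen with earlier results of these data known, although no measured value enters the rule itself. Per-library values are given for called members, a fixed set of 12 members, and the 4 smallest p-values of each comparison; other lists are named by their calls, with CDK inhibitors, Mybl2, Kpnb1, Kpna2 and Ran given whatever their result. Alternatives varied the pseudocount, filter, scaling, samples, moderation, threshold and replicate block, and left out libraries. Removal of the GC and length trend was added after seeing the data. Exons of 10 members overlap a gene on the other strand (Ccna2, Cdc25b, Cdc25c, Plk1, Cdc20, Numa1, Nusap1, Kif22, Kif20a and Prc1), and Ccnb1, Ccnb2 and Kif22 have pseudogenes named after them, so their values are less certain.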

Additional observations from a re-analysis of the deposited data

How the results depend on the processing

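The number of genes called with ivermectin against vehicle, 489, became 132 with no filter, 274 with only the 6 libraries compared, 173 at an adjusted p under 0.01 and 195 when the pair of libraries with Yam1 at 0 was left out, and 243 to 399 without single libraries. It became 612 under quantile normalization, 638 under median-of-ratios scaling and 532 with the GC and length trend removed, which gave 361 for importazole and 456 for the direct comparison. For importazole against vehicle, 256 became 74 with no filter, 108 at 0.01, 161 without that pair and 128 to 320 without single libraries. For ivermectin against importazole, 388 became 108 with no filter, 150 at 0.01, 233 without that pair and 177 to 396 without single libraries. The count of members called against vehicle, 1 for each compound, was 0 under no filter, only the 6 libraries compared, an adjusted p under 0.01, no trend with no robust moderation, and without that pair, and was 0 to 1 without single libraries. It stayed 1 under both other pseudocounts, the filter at 5 FPKM, both scalings and the GC and length correction, which also gave 1 member in the direct comparison, where the main count and the other alternatives gave 0.

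Over all genes, same-numbered libraries did not deviate together (r = -0.21 to 0.14 over 9 pairs, 1 of them over 0.1), so the numbers were not taken to pair the samples. Over the 40 members alone r was -0.15 to 0.44, with 5 of the 9 pairs over 0.1. With the replicate block 354, 175 and 257 genes were called in the 3 comparisons, and 0 members in each, with an adjusted p of 0.0619 for Ccna2 and 0.103 for Kif22, and 0.0719 for Cdc16 and 0.0528 for Clasp1 outside the members. The called differences of Ccna2, Kif22, Cdc16, Clasp1, E2f1 and Cdkn2d kept their sign under every alternative run. Signs of the other called genes were not followed. By construction more genes are tested with no filter and fewer libraries enter the left-out settings; otherwise the cause was not tested. With 3 libraries a group the median 95% interval of a member reached 0.17 log2 units to each side, so smaller differences are not resolved.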
